A study of Mus musculus with 12 samples.

Results

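The Schlafen genes encode a mouse protein family named from the German word for sleeping, after the growth arrest that its founding member caused in thymocytes. The 7 genes described here are Slfn1, Slfn2, Slfn3, Slfn4, Slfn5, Slfn8 and Slfn9, 7 of the 53647 genes counted. They were chosen by name and not by an expression value, though earlier results of these data were known. Members fall into a short group (Slfn1, Slfn2), an intermediate group (Slfn3, Slfn4) and a long group that also carries a helicase-like region (Slfn5, Slfn8, Slfn9). Several of them are known as targets of type I interferon, which signals through the IFNAR receptor to elements called ISREs in gene promoters. Slfn2 binds transfer RNAs and shields them from stress-induced cleavage, and is needed for the quiescence of T cells and monocytes.

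RNA was sequenced from 12 libraries, which form 6 groups with the wild-type genotype, and each group has 2 libraries named preparation 1 and preparation 2. The cell lines in the labels are DC2.4 (dendritic cells of the mouse, immortalized) and 4T1 (breast tumour cells of the mouse, epithelial in origin). Cells of either label were given mRNA for uniSTING, a mimic of the adaptor STING according to the series title, or Mock mRNA, which encodes EGFP. The other 2 groups, EXOmock and EXOuniSTING, are DC2.4 cells kept for 24 h with extracellular vesicles that came from 4T1 cells after Mock or uniSTING mRNA. The labels name a transfection reagent and lipid nanoparticles as carriers of the mRNA without assigning either to a library, and give no duration for the mRNA treatment. They do not say that the preparations came from separate cultures. The spread behind each p-value is therefore that of these libraries and may be technical.

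Marker genes went against the labels of the mRNA-treated libraries, so groups are named below by label only. The summed level of 12 epithelial markers was 5280 to 5510 counts per M counted (CPM) in the mRNA-treated libraries labelled DC2.4, 0.317 to 5.55 CPM in those labelled 4T1 and 0.267 to 6.03 CPM in the vesicle-treated ones. The sum of 14 myeloid and leukocyte markers ran the other way, at 33.3 to 52.8, 8290 to 8500 and 10200 to 12900 CPM. The leukocyte marker Ptprc had 0 to 19 counts in the mRNA-treated libraries labelled DC2.4 and at least 4339 in every other library. Totals were 14.1 to 26.0 M counts, and 3 counts, the floor used here, equal 0.115 to 0.213 CPM. Each preparation 1 library held 88.7 to 190 CPM of 12 transcripts typical of other tissues, against 0 to 0.115 CPM in preparation 2.

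The 7 genes lie together on chromosome 11, between positions 82842175 and 83105980 of GRCm39, a span of 264 kb that also holds the pseudogene Slfn10-ps. In order along the chromosome they are Slfn5, Slfn9, Slfn8, Slfn2, Slfn1, Slfn4 and Slfn3, with Slfn9 and Slfn8 on the minus strand and the others on the plus strand. Slfn2 (ENSMUSG00000072620) spans positions 82955938 to 82961504 with 1664 exonic bases, Slfn3 (ENSMUSG00000018986) 83082156 to 83105980 with 3411, Slfn8 (ENSMUSG00000035208) 82892984 to 82911636 with 4091 and Slfn9 (ENSMUSG00000069793) 82869216 to 82882656 with 5965. Some of the exonic sequence of the family is duplicated. Of the 50-base windows of its longest transcript, Slfn3 shared 18% exactly with another gene, Slfn8 15.4%, Slfn9 11.4% and Slfn4 11.1%, most often Slfn4 for Slfn3, Slfn10-ps for Slfn8 and Slfn9, and Slfn3 for Slfn4. For Slfn2 the share was 4.27%. Only uniquely mapped reads were counted, so the levels of the former 4 genes are uncertain on the low side. Counting also ignored strand, so any reads over exons of both Slfn5 and the overlapping antisense gene Slfn5os could not be told apart. Such reads may have gone uncounted, which makes the level of Slfn5 uncertain on the low side too. Slfn5os had 1 count in all libraries together.

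Promoters of the 4 members with the highest levels are shown, since these carry the differences described below. Each sequence runs 5′ to 3′ on the strand of its gene, from 250 bases before to 50 bases after the RefSeq transcription start in GRCm38.p6. Capitals mark a match to the ISRE core on either strand, which is GAAA, any 2 bases and GAAA again. Slfn2 and Slfn3 (plus strand) occupy chr11:83064862-83065161 and chr11:83191080-83191379, and Slfn8 and Slfn9 (minus strand) occupy chr11:83020761-83021060 and chr11:82991781-82992080.
Slfn2: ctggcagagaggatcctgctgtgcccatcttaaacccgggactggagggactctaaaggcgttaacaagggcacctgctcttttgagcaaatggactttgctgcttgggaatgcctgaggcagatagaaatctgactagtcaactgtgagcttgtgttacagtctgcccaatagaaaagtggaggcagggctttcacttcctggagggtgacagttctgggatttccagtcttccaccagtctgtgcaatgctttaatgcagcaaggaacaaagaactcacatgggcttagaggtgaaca
Slfn3: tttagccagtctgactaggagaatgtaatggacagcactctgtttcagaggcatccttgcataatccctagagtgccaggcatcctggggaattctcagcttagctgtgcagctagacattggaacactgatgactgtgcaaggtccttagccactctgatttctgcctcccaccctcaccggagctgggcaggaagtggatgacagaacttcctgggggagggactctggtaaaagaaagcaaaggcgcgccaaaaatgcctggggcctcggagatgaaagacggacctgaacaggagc
Slfn8: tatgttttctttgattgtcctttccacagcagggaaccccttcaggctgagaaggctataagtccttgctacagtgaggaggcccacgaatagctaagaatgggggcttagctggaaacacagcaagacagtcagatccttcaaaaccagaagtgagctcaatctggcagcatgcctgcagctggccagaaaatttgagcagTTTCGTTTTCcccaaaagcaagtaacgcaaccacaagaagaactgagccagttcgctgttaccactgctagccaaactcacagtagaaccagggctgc
Slfn9: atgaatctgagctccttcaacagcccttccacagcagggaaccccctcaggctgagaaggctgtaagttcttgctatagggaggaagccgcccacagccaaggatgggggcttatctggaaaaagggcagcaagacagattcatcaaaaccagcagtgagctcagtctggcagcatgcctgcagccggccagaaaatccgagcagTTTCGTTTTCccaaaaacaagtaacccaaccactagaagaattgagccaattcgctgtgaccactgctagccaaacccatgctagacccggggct

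The matches in Slfn8 and Slfn9 are the same 10 letters, TTTCGTTTTC, beginning at positions -48 and -45 from the start. The 2 promoters were identical at 250 of 289 aligned bases (86.5%), and Slfn9 and the alternative start of Slfn8 at 180 of 205 (87.8%). The other 25 pairs of promoters of the family, alternative starts included, were identical at 13 to 183 bases. That is 69.2% to 83.2% of the bases aligned in each pair. The aligned stretches ran from 17 bases (Slfn5 and Slfn4) to 237 (Slfn3 and the alternative start of Slfn8). The percentages thus cover unlike parts of the promoters and are not the likeness of whole promoters. Slfn5 also held a match, beginning at position -155 on the strand of the gene, so 3 of the 7 members held one, against 3.43% of all 32817 promoters of the same length. Among 19 interferon-stimulated genes with a promoter in the same set, 12 held it. A gene was counted if any of its promoters matched, while the 3.43% is a share of single promoters. Slfn2, which rose in 2 of the 3 comparisons below, and Slfn1, Slfn3 and Slfn4 held none of these letters in this window. The GAS core (TTCNNNGAA) and the PU.1 core (GAGGAAGT), searched on both strands, were in none of the 7, against 8.29% and 3.2% of all promoters. The PU.1 search took only these exact letters. The shorter AGGAAGT, or ACTTCCT on the other strand, is in the promoters of Slfn1, Slfn2, Slfn3 and Slfn4, and its share over all promoters was not computed. A match in letters is a description and does not show binding.

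The family was made up of different genes in the 2 kinds of library. Scaled to exonic length, the summed level of the 7 genes was 18.4 ± 0.429 CPM per kb (SD, n = 2) in the Mock libraries labelled DC2.4 and 45.2 ± 0.0805 in those labelled 4T1. In the former, Slfn9 took 44.0 ± 2.4% of that sum, Slfn3 40.3 ± 0.423% and Slfn2 5.54 ± 2.29%. In the latter, Slfn2 took 83.7 ± 0.741%, Slfn3 12 ± 0.456% and Slfn9 3.09 ± 0.441%. The vesicle-treated libraries, also labelled DC2.4, had a makeup close to that of the 4T1-labelled ones, with Slfn2 at 81.1 ± 1.46% in EXOmock and 84.7 ± 0.402% in EXOuniSTING. In bulk RNA, more cells with a transcript and more transcript per cell cannot be told apart.

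**Figure D1:**
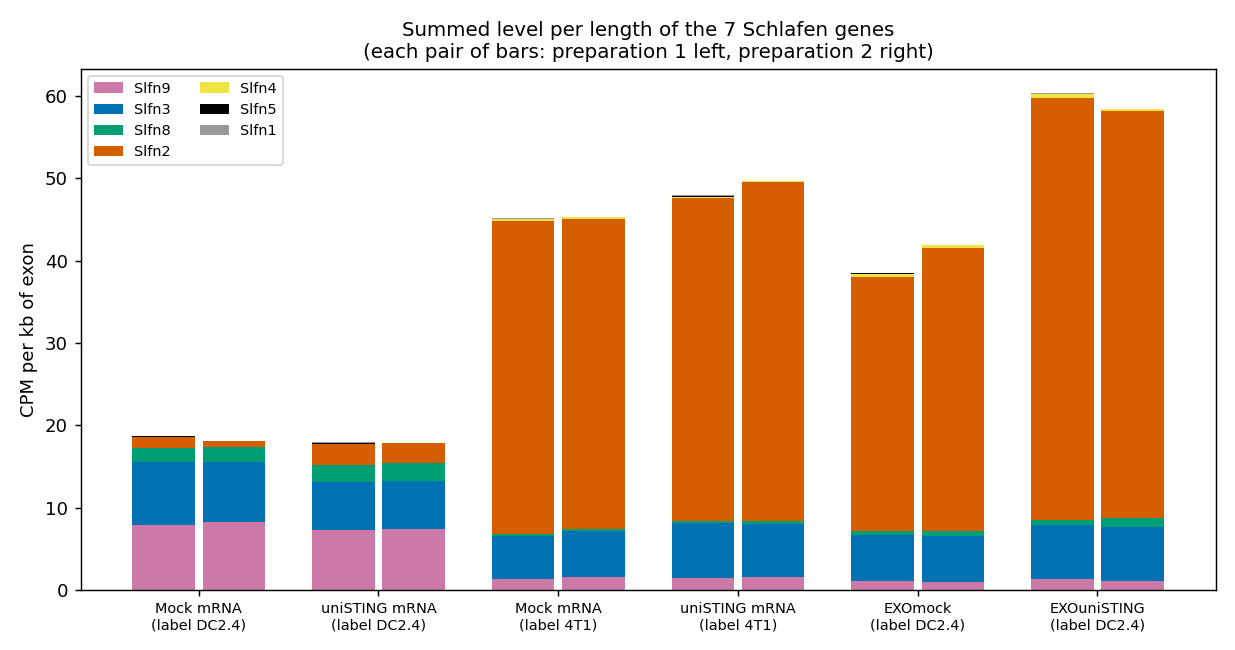
Summed level of the 7 Schlafen genes per length (CPM per kb of exon, vertical axis) in each of the 12 libraries, with colours for the genes. Slfn2 fills 5.54% of the bar on average in the Mock libraries labelled DC2.4 and 83.7% in the Mock libraries labelled 4T1.

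Of the 7 members, Slfn2, Slfn3, Slfn4, Slfn8 and Slfn9 passed the filter on low counts and were tested, while Slfn1 and Slfn5 did not pass it. With uniSTING mRNA under the DC2.4 label, Slfn2 rose and Slfn3 fell, which is 2 of the 5 tested members, where 41.7% of all 14863 tested genes changed (20.8% rose and 20.9% fell). For uniSTING mRNA under the 4T1 label, Slfn3 alone of the 5 passed, as a rise, where 28.3% of all genes changed (12.6% rose and 15.7% fell). With EXOuniSTING, Slfn2 alone passed, as a rise, where 16.1% of all genes changed (7.96% rose and 8.14% fell). These counts of members are near those shares, so they do not set the family apart from other genes. The median log2 fold change of the 5 was 0.27, 0.06 and 0.26 in the 3 comparisons in that order, against 0, -0.01 and 0 over all tested genes. The 0.27 under the DC2.4 label includes Slfn4 at 4.64, which rests on 0 counts with Mock and 6 with uniSTING. The remaining tested members ran from -0.33 to 1.34 there, so this median does not show a shift of the family.

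**Figure D2:**
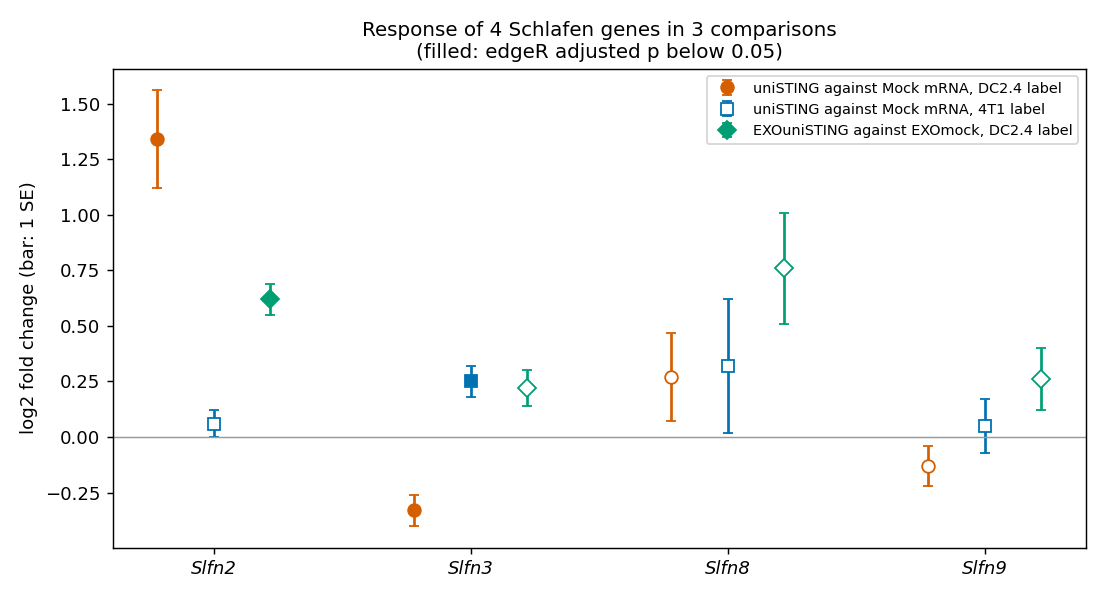
The log2 fold change (vertical axis, bars of 1 standard error) of Slfn2, Slfn3, Slfn8 and Slfn9 in the 3 comparisons of uniSTING with its control, with filled symbols for an adjusted p below 0.05. Slfn2 stands at 1.34 under the DC2.4 label, 0.06 under the 4T1 label and 0.62 with vesicles, and Slfn3 at -0.33, 0.25 and 0.22.

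Slfn2, of the short group, had the widest range of CPM among the 7. It was counted at 2.23 and 1.18 CPM (39 and 26 counts) in the Mock libraries labelled DC2.4 and at 4.14 and 4.11 CPM (78 and 103 counts) in the uniSTING libraries of that label. It stood at 63.4 and 62.7 CPM in Mock and 65.3 and 68.5 CPM in uniSTING libraries labelled 4T1, and at 51.3 and 57.2 CPM after EXOmock and 85.4 and 82.2 CPM after EXOuniSTING. No 2 of the 6 groups overlapped, in the order EXOuniSTING, 4T1 uniSTING, 4T1 Mock, EXOmock, DC2.4 uniSTING and DC2.4 Mock. Between the Mock groups, Slfn2 was lower under the DC2.4 label by a log2 fold change of -5.18 (SE 0.13, edgeR adjusted p = 1.85e-14).

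Under the DC2.4 label Slfn2 was 2.53-fold higher with uniSTING mRNA than with Mock, a log2 fold change of 1.34 (SE 0.22, edgeR adjusted p = 0.000223). The rise rests on low counts, and preparation 1 alone gave 0.88 and preparation 2 alone 1.78. Its log2 fold change was 1.82 without the first Mock library labelled DC2.4 and 0.90 without the second, with the call kept each time. Myeloid and leukocyte markers were scarce in these libraries. The sums of the 14 myeloid and leukocyte markers were 47.1 and 33.3 CPM with Mock and 52.8 and 33.5 CPM with uniSTING, and without Lyz2 38.2 and 33.3 CPM with Mock and 37.4 and 33.5 CPM with uniSTING. Of these markers, 1 of the 14 (Cd68, a lysosomal protein of macrophages, log2 fold change 0.54) rose and 1 (Itgb2, an integrin chain of leukocytes, -0.21) fell. Of all tested genes, 20.8% rose and 20.9% fell. Several of the 14 were at or near 0 CPM in these libraries and were tested only because other groups held them. For these, the lack of a call does not show that they were unchanged. Cd68 and Itgb2 made up most of the sums without Lyz2, at mean levels of 7.42 and 25.7 CPM with Mock. With uniSTING these were 10.5 and 21.8 CPM. The sums thus rest on few genes, and the part of leukocyte RNA in the Slfn2 rise was not tested.

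With vesicles, Slfn2 was 1.54-fold higher in EXOuniSTING than in EXOmock, a log2 fold change of 0.62 (SE 0.07, edgeR adjusted p = 3.16e-05), and 0.55 to 0.71 when any library was left out. The myeloid and leukocyte sum was lower in EXOuniSTING, at 10200 to 10900 CPM against 12900 CPM in each EXOmock library, but Lyz2, the lysozyme of macrophages, carried that gap, at 5770 to 6550 CPM against 8610 to 8640 CPM (log2 fold change -0.49, edgeR adjusted p = 0.206). The other 13 markers summed to 4380 to 4390 CPM in EXOuniSTING and 4240 to 4310 CPM in EXOmock. Of the 14 genes 4 were called higher and 2 lower, where 7.96% and 8.14% of all tested genes were. Under the 4T1 label the Slfn2 log2 fold change with uniSTING mRNA was 0.06 (SE 0.06, edgeR adjusted p = 0.514). The responses themselves differed. The change in Slfn2 under the DC2.4 label exceeded that under the 4T1 label by 1.28 (SE 0.23, edgeR adjusted p = 0.000733), where 31.1% of all tested genes differed (16% higher and 15.1% lower under the DC2.4 label). That with vesicles exceeded the mRNA response under the 4T1 label by 0.56 (SE 0.09, edgeR adjusted p = 0.000383), where 28% of all tested genes differed (15% higher and 13% lower with vesicles).

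**Figure D3:**
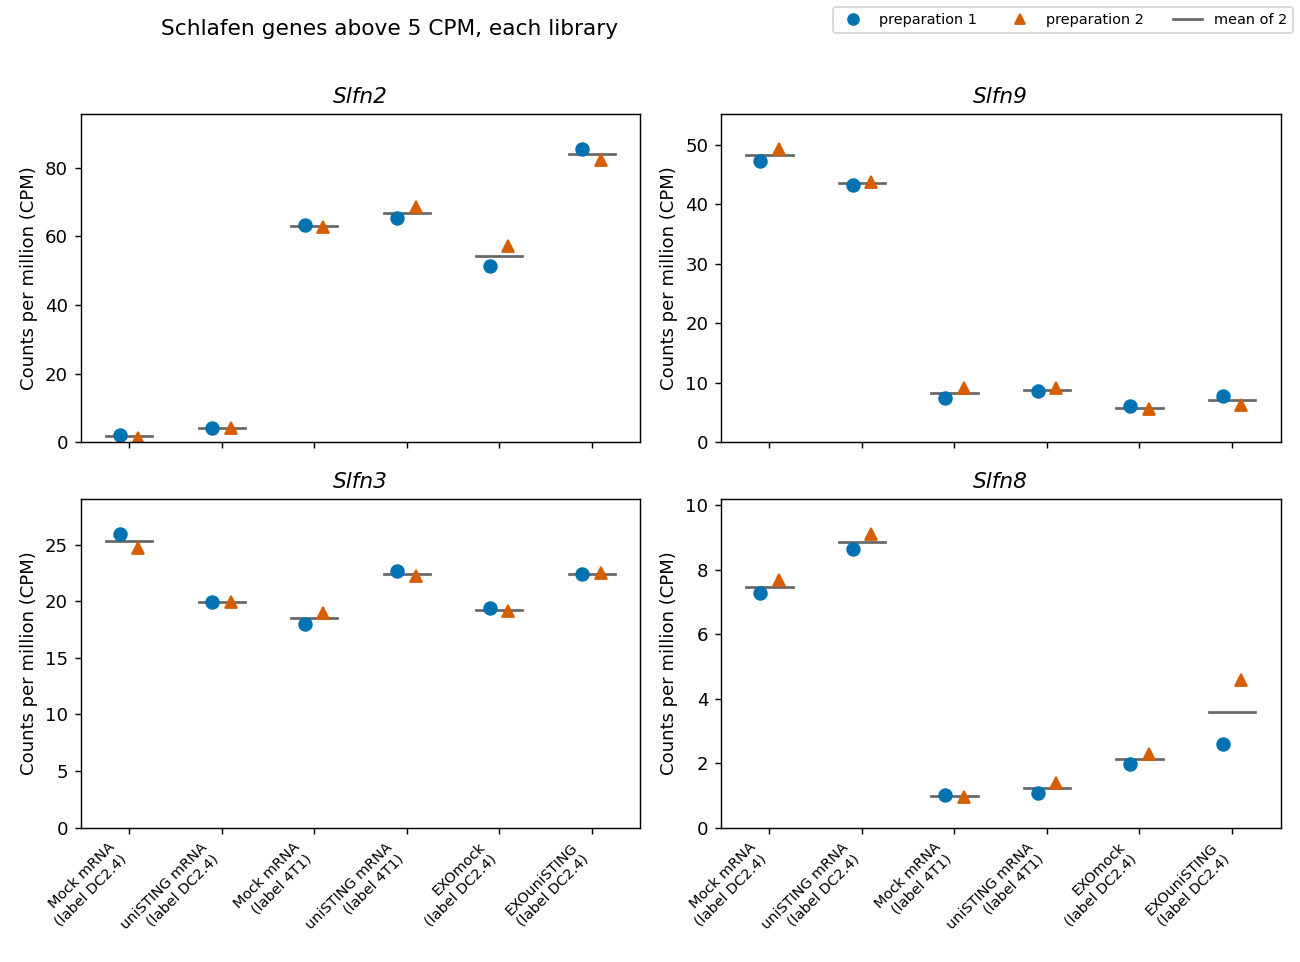
Level in CPM (vertical axes, each from 0) of Slfn2, Slfn9, Slfn3 and Slfn8 in each library, with circles for preparation 1, triangles for preparation 2 and lines for the mean of the 2. Slfn2 lies at 1.18 to 4.14 CPM in the mRNA-treated libraries labelled DC2.4 and at 51.3 to 85.4 CPM in all others, while Slfn8 and Slfn9 are highest in the former.

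Slfn3, of the intermediate group and studied in rodents for its part in the differentiation of gut epithelium, was the most even of the 5 tested members. It was counted at 25.9 and 24.7 CPM in Mock and 19.9 and 19.9 CPM in uniSTING libraries labelled DC2.4. It stood under the 4T1 label at 18 and 19 CPM with Mock and 22.7 and 22.2 CPM with uniSTING, and with vesicles at 19.4 and 19.1 CPM after EXOmock and 22.4 and 22.5 CPM after EXOuniSTING. Mock and uniSTING did not overlap in any of the 3 settings, with uniSTING the lower group under the DC2.4 label and the higher group in the other 2.

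Slfn3 fell by 0.33 on the log2 scale under the DC2.4 label (SE 0.07, edgeR adjusted p = 0.00224). It rose by 0.25 under the 4T1 label (SE 0.07, edgeR adjusted p = 0.0215). This rise lost its call without the first 4T1 Mock library (edgeR adjusted p = 0.129), without either 4T1 uniSTING library (0.0832 and 0.0657), with DESeq2 (0.0977) and with no filter on low counts (0.076). With vesicles the log2 fold change was 0.22 (SE 0.08, edgeR adjusted p = 0.0683), short of the threshold. The 2 mRNA responses differed by -0.57, DC2.4 label minus 4T1 label (SE 0.1, edgeR adjusted p = 0.000692), while the difference between the vesicle and the 4T1-label response was -0.03 (SE 0.11, edgeR adjusted p = 0.944).

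Slfn8 and Slfn9, neighbours of the long group, were the members with the higher level in the mRNA-treated libraries labelled DC2.4. Slfn9 stood at 47.2 and 49.3 CPM with Mock and 43.3 and 43.8 CPM with uniSTING under the DC2.4 label. It had 7.5 and 9.2 CPM with Mock and 8.6 and 9.12 CPM with uniSTING under the 4T1 label, and 6.05 and 5.62 CPM after EXOmock and 7.84 and 6.26 CPM after EXOuniSTING. The 2 Mock groups lay far apart, a 6.02-fold difference (log2 2.59, SE 0.1, edgeR adjusted p = 6.27e-12), while 4T1 Mock overlapped both 4T1 uniSTING and EXOuniSTING, which did not overlap each other. Mock lay above uniSTING under the DC2.4 label, and EXOuniSTING above EXOmock, without overlap.

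The response of Slfn9 to uniSTING passed the threshold in none of the 3 comparisons by edgeR (adjusted p = 0.266, 0.837 and 0.254). Its log2 fold changes were -0.13 (SE 0.09) under the DC2.4 label, 0.05 (SE 0.12) under the 4T1 label and 0.26 (SE 0.14) with vesicles. None of the 10 other settings or of the 12 fits that left out a library called it in these comparisons.

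Slfn8, which is known from activated T cells, stood at 7.26 and 7.67 CPM with Mock and 8.65 and 9.09 CPM with uniSTING under the DC2.4 label. It had 1.01 and 0.952 CPM with Mock and 1.07 and 1.39 CPM with uniSTING under the 4T1 label, and 1.99 and 2.3 CPM after EXOmock and 2.61 and 4.57 CPM after EXOuniSTING. In each setting both uniSTING libraries lay above both controls. Between the Mock groups the difference was 8.01-fold (log2 3, SE 0.25, edgeR adjusted p = 3.84e-08).

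The log2 fold change of Slfn8 with uniSTING was 0.27 (SE 0.2, edgeR adjusted p = 0.315) under the DC2.4 label and 0.32 (SE 0.3, edgeR adjusted p = 0.478) under the 4T1 label. With vesicles it was 0.76 (SE 0.25, edgeR adjusted p = 0.0518), just short of the threshold, and past it with no filter on low counts (0.0191) or upper-quartile factors (0.0464). The second EXOuniSTING library decided this value, since without it the log2 fold change was 0.27 and without the first one 1.08 (edgeR adjusted p = 0.0068). The counts behind it were 28 and 43 in EXOmock and 39 and 97 in EXOuniSTING. Under the 4T1 label Slfn8 had 18 and 24 counts with Mock and 21 and 36 with uniSTING.

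In the Mock groups all 5 tested members differed between the labels, where 83% of all tested genes did (42.4% higher and 40.5% lower), with Slfn3, Slfn8 and Slfn9 higher and Slfn2 and Slfn4 lower under DC2.4. Slfn3 differed least, by a log2 fold change of 0.53 (SE 0.07, edgeR adjusted p = 1.08e-05). The EXOmock libraries, which carry the DC2.4 label and the leukocyte markers, were closer to the 4T1 Mock libraries. Between these, 3 of 5 members differed, where 53.7% of all genes did (26.1% higher and 27.6% lower). Slfn8 was 2.2-fold higher in EXOmock (log2 1.14, SE 0.29, edgeR adjusted p = 0.00396), Slfn9 was lower by a log2 fold change of -0.54 (SE 0.14, edgeR adjusted p = 0.00382) and Slfn2 by -0.21 (SE 0.07, edgeR adjusted p = 0.0151). Without the second 4T1 Mock library only Slfn8 was called, and Slfn2 also lost its call without the first EXOmock library (edgeR adjusted p = 0.151) and with upper-quartile factors (0.0899). Slfn4, at a log2 fold change of 1.06 (edgeR adjusted p = 0.161), was called when only these 4 libraries were fitted (0.0362). Label, treatment and the cells in the libraries cannot be told apart in these contrasts.

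Slfn4, of the intermediate group and known in mice from macrophages and other myeloid cells, was scarce, with its higher counts in the libraries that carry the leukocyte markers. It had 0 and 0 counts with Mock and 6 and 0 with uniSTING under the DC2.4 label, 10 and 23 with Mock and 12 and 12 with uniSTING under the 4T1 label, and 23 and 28 in EXOmock and 26 and 27 in EXOuniSTING. UniSTING and control overlapped in each setting. Between the Mock groups it was at least 10.1-fold lower under the DC2.4 label, taking 3 counts over the group as the floor (edgeR adjusted p = 0.000632).

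No response of Slfn4 to uniSTING passed the threshold in edgeR, with adjusted p values of 0.0726, 0.609 and 0.984 in the 3 comparisons. Under the DC2.4 label its 6 counts came from the first library, and it was called without the second uniSTING library (edgeR adjusted p = 0.00517) and with no filter on low counts (0.0239). The ratio of summed counts per total, uniSTING over Mock, was 0.687 under the 4T1 label, with an exact 95% counting interval of 0.389 to 1.2. With vesicles it was 0.941, with an interval of 0.629 to 1.41. These intervals cover counting error only.

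Slfn1, the founding member, and Slfn5, a long member induced by interferon in other mouse cells, were near the limit of detection in every group. Slfn1 had 20 counts in all 12 libraries, 19 in preparation 1 and 1 in preparation 2, and 5 of the 6 preparation 2 libraries had 0. Slfn5 had 40 counts, 32 in preparation 1 and 8 in preparation 2. Every group of either gene overlapped the next in level.

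The highest library had 6 counts of Slfn1 and 9 of Slfn5. Under the DC2.4 label each gene had 2 counts with Mock and 7 with uniSTING, a ratio of 3.15 with a counting interval of 0.6 to 31.1, so a change was not detectable at this depth. The transcripts typical of other tissues also stood almost wholly in preparation 1, and their part in these counts was not tested.

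**Figure D4:**
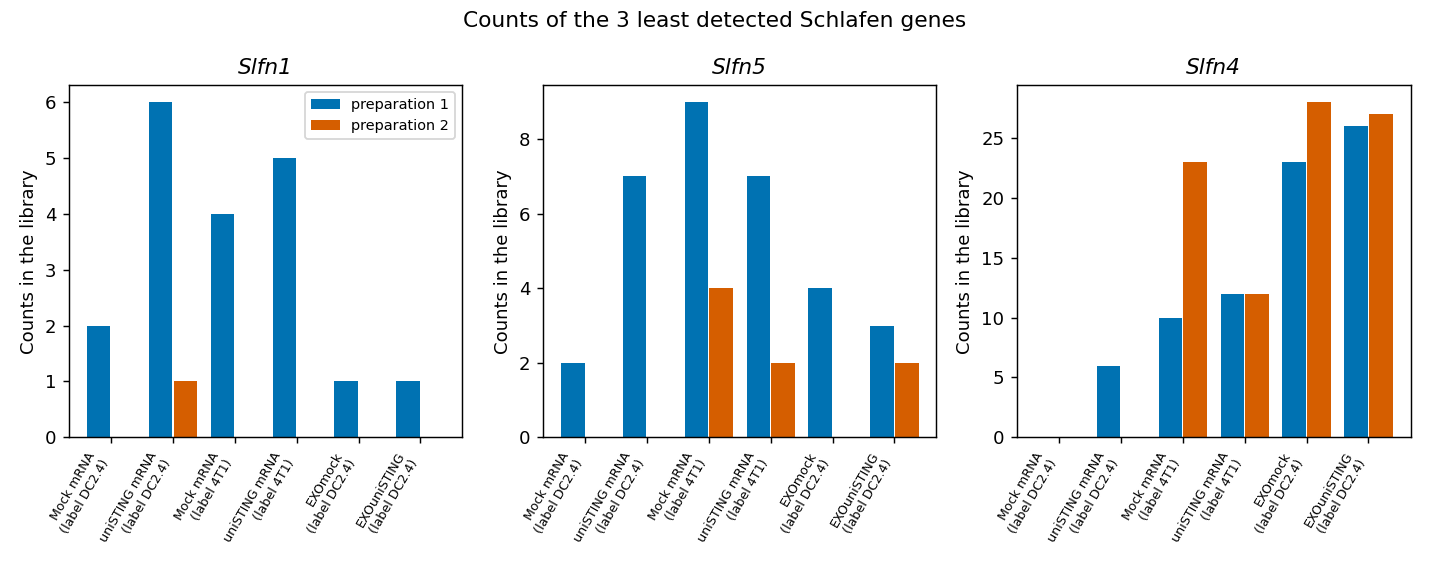
Counts (vertical axes, each from 0) of Slfn1, Slfn5 and Slfn4 in each library, with colours for the 2 preparations. Slfn1 and Slfn5 lie mostly in preparation 1, with 19 of 20 and 32 of 40 counts, while Slfn4 has 77 counts in preparation 1 and 90 in preparation 2.

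Most interferon-stimulated genes other than the Schlafen genes rose under the DC2.4 label and with vesicles. Their list was chosen with earlier results of these data known. Of 24 tested, 23 rose and 0 fell under the DC2.4 label, where 20.8% of all tested genes rose, with a median log2 fold change of 1.41. The 3 with the smallest p were Ifitm3 and Bst2, membrane proteins that restrict viruses, at 0.64 and 0.75, and Irf7, a transcription factor of interferon genes, at 2.12 (edgeR adjusted p = 9.59e-09, 8.47e-08 and 2.63e-07). With vesicles 22 rose and 0 fell, where 7.96% of all tested genes rose, with a median of 2.02, led by the 2′-5′ oligoadenylate synthetase family genes Oas3 at 2.13, Oasl2 at 2.92 and Oas2 at 3.05 (edgeR adjusted p = 3.57e-08, 1.34e-07 and 1.18e-06). Under the 4T1 label 6 rose and 2 fell, with a median of 0.24, where 12.6% of all tested genes rose and 15.7% fell. In both directions together 8 of 24 were called under that label, beside 28.3% of all tested genes. There Ifitm3, the antiviral enzyme gene Rsad2 and the ubiquitin-like Isg15 rose by 0.43, 1.72 and 1.07 (edgeR adjusted p = 3.41e-07, 0.00041 and 0.00105). Against these, Slfn2 under the DC2.4 label, at 1.34, lay near the list's median, and the 0.62 of Slfn2 with vesicles lay below it.

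**Figure D5:**
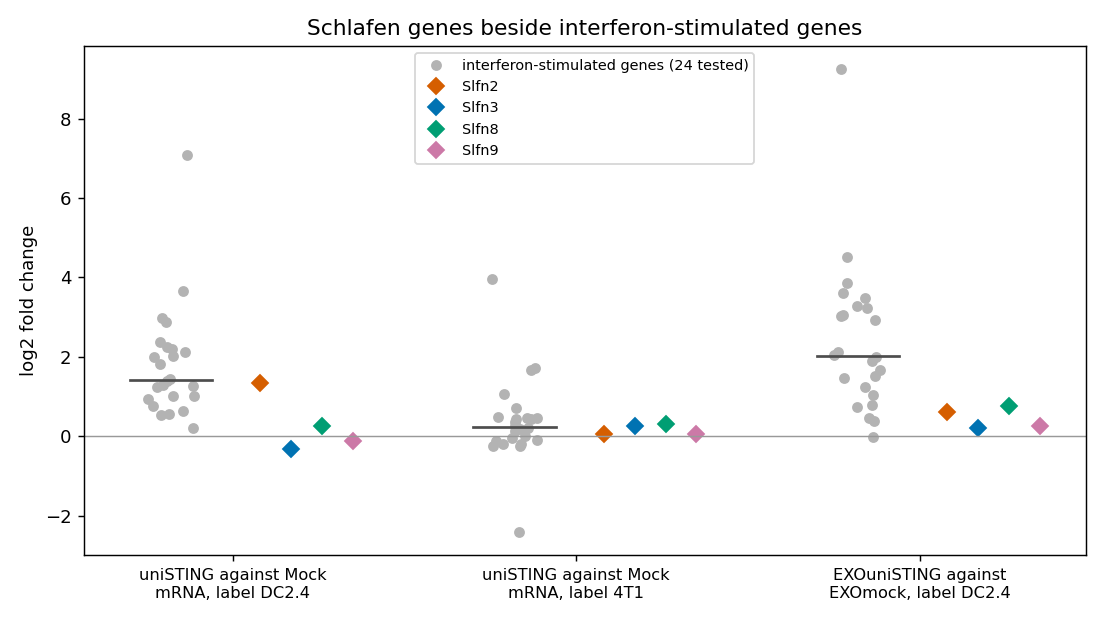
The log2 fold change (vertical axis) of the 24 tested interferon-stimulated genes (grey points, with their median as a line) and of Slfn2, Slfn3, Slfn8 and Slfn9 (diamonds) in the 3 comparisons. The medians are 1.41, 0.24 and 2.02, and the Schlafen genes lie below them except Slfn3 and Slfn8 under the 4T1 label.

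Genes of the interferon receptor and its signalling moved in both directions. Of 7, 6 were called under the DC2.4 label, 3 under the 4T1 label and 2 with vesicles, beside 41.7%, 28.3% and 16.1% of all tested genes, and their median log2 fold changes were -0.03, -0.05 and 0.21. Under the DC2.4 label 3 rose and 3 fell, where Irf9, a DNA-binding factor of the interferon response, rose by 1.14 and Stat2 by 0.48 while the receptor kinase Jak1 fell by 0.26 (edgeR adjusted p = 1.33e-06, 0.000532 and 3.55e-06). With vesicles 2 rose, Irf9 by 0.78 and the kinase Tyk2 by 0.21 (edgeR adjusted p = 0.000275 and 0.0326), and Ifnar1 at 0.12 did not pass. Under the 4T1 label 0 rose and 3 fell, the receptor chains Ifnar1 by 0.32 and Ifnar2 by 0.27 and Tyk2 by 0.27 (edgeR adjusted p = 1.82e-05, 0.000256 and 0.00151).

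Genes tied to the known roles of Slfn2 were read from further lists. Of 8 genes of transfer RNA cleavage and protection, 1 rose and 1 fell under the DC2.4 label, 3 rose and 1 fell under the 4T1 label, and 2 rose and 3 fell with vesicles. These are 2, 4 and 5 of 8, beside 41.7%, 28.3% and 16.1% of all tested genes, with median log2 fold changes of 0.01, 0.01 and -0.12. Rnh1, the inhibitor of angiogenin and related ribonucleases, rose in each comparison, by 0.33, 0.25 and 0.17 on the log2 scale (edgeR adjusted p = 5.47e-07, 6.86e-06 and 0.000935). Elac2, which trims transfer RNA precursors, fell by 0.41 under the DC2.4 label (edgeR adjusted p = 2.79e-05). Nsun2, which methylates transfer RNA, rose by 0.16 under the 4T1 label and fell by 0.16 with vesicles (edgeR adjusted p = 6.85e-05 and 0.000172).

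Of 13 quiescence factors, 4 rose and 5 fell under the DC2.4 label, 0 rose and 5 fell under the 4T1 label, and edgeR called 0 with vesicles. The share called among all tested genes was 41.7%, 28.3% and 16.1%, and the median log2 fold changes of the 13 were -0.1, -0.15 and -0.05. Under the DC2.4 label the antiproliferative gene Btg1 rose by 0.56, and Tsc2, a brake on mTOR signalling, and the transcription factor Foxo1 fell by 0.51 and 0.80 (edgeR adjusted p = 7.33e-10, 5.98e-07 and 1.43e-05). The transcription factor Foxo3 fell by 0.17 under the 4T1 label, Tsc2 by 0.16 and the cyclin-dependent kinase inhibitor Cdkn1b by 0.23 (edgeR adjusted p = 0.00118, 0.00475 and 0.00628). With vesicles the unadjusted edgeR p was below 0.05 for 3 of the 13, Cdkn1b (log2 fold change 0.19), Cdkn1a (-0.08) and Btg1 (-0.08), while DESeq2 called 0 and limma-voom 1.

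Of 9 tested myeloid differentiation factors, 3 rose and 4 fell under the DC2.4 label, 1 rose and 5 fell under the 4T1 label, and 2 rose and 0 fell with vesicles. Called in all were 7, 6 and 2 of 9, beside 41.7%, 28.3% and 16.1% of all tested genes, with median log2 fold changes of 0.29, -0.13 and 0.09. Under the DC2.4 label some of the 9 were near the floor and still enter the median. Spi1 was among them, at mean levels of 0.0739 CPM with Mock and 0.153 CPM with uniSTING. Id2, a helix-loop-helix factor needed for some dendritic cells, rose by 1.24 under the DC2.4 label and by 0.40 with vesicles, and fell by 0.35 under the 4T1 label (edgeR adjusted p = 1.95e-07, 0.00104 and 0.000287). Zeb2 and Runx1 fell by 0.70 and 0.37 under the DC2.4 label (edgeR adjusted p = 2.86e-08 and 1.27e-05). Irf8 and Cebpb fell by 0.23 and 0.31 under the 4T1 label (edgeR adjusted p = 3.85e-05 and 1e-04), and Spi1, which encodes PU.1, rose by 0.16 with vesicles (edgeR adjusted p = 0.00387).

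Within the locus, the pseudogene Slfn10-ps, which shares sequence with Slfn8 and Slfn9, was, like Slfn2 and unlike these 2, lowest in the mRNA-treated libraries labelled DC2.4. It had 4 and 8 counts with Mock and 12 and 22 with uniSTING under the DC2.4 label, 156 and 215 with Mock and 154 and 268 with uniSTING under the 4T1 label, and 222 and 293 in EXOmock and 206 and 311 in EXOuniSTING. It rose by 1.35 under the DC2.4 label (SE 0.37, edgeR adjusted p = 0.00984; not called by limma-voom), while its log2 fold change was 0.06 under the 4T1 label and -0.14 with vesicles (edgeR adjusted p = 0.827 and 0.526). Slfn14 had 3 counts and Slfnl1, on chromosome 4, had 2 counts in all libraries. Of 42 other genes within 300 kb of either end of the span, Slfn10-ps among them, 16 were tested, and 2 rose and 3 fell under the DC2.4 label, 1 rose and 3 fell under the 4T1 label, and 1 rose and 2 fell with vesicles. These 5, 4 and 3 of 16 are near or below the shares of all tested genes called (41.7%, 28.3% and 16.1%) and do not set the locus apart. Those called with a change of at least 1.5-fold were Slfn10-ps and Gm11425, an unnamed gene model inside the span whose 2 counts with Mock and 14 with uniSTING gave a log2 fold change of 2.54 (edgeR adjusted p = 0.0146).

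Genes whose profile over the 12 libraries was most like that of each member were found by the root mean square difference of log2(CPM + 0.5), each gene less its own mean, among 10480 genes. For Slfn2 they were Tent5c at 0.24, P2ry10b at 0.25 and Mgst1 at 0.28, where the median gene stood at 2.1. Mgst1 had mean levels of 2.61 CPM with Mock and 5.31 CPM with uniSTING under the DC2.4 label, and 61.0 CPM in EXOmock and 71.1 CPM in EXOuniSTING. For Slfn9 they were Bcl9l at 0.1, Phldb1 at 0.12 and Ece1 at 0.13 (median 1.3), and for Slfn8 Platr16 at 0.23, Bcar3 at 0.24 and Spsb1 at 0.25 (median 1.15). For the even Slfn3 they were Zfp280c at 0.08, Cdt1 at 0.09 and Mettl13 at 0.1 (median 0.44). Of the family only Slfn2, Slfn3, Slfn8 and Slfn9 could be picked, since pseudogenes and genes below 5 CPM in every group were left out. None of them was among the 3 most like another.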

How the data were processed

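The 12 libraries were made from 1.0 µg of total RNA with a NEBNext Ultra kit, and the labels' protocols leave it unsaid whether strand was kept. The values are the counts per gene that the authors deposited. HISAT2 and GRCm39 are named in the submitters' processing notes. Counting was by featureCounts (Subread 2.0.1) over exons of Ensembl 103 with read pairs, unique alignments and no strand option, per the file headers. The 2 libraries of a group differed by more than counting error, with a mean chi-square per gene of 2.15 to 2.78. A gene-name table gave symbols for 52093 of 53647 identifiers.

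All 12 libraries were fitted with edgeR 4.0.16 in R 4.3.3, with 1 mean per group, TMM factors, filterByExpr (14863 genes tested), the quasi-likelihood F test and Benjamini-Hochberg adjustment over all tested genes at a threshold of 0.05. Each standard error was computed from the fold change and F, and CPM are over deposited totals. An exact permutation test of 2 against 2 libraries cannot go below p = 0.333, so none is given. Alternatives were DESeq2 1.42.0, limma-voom (limma 3.58.1), other scalings and filters, fewer libraries, a replicate block and removal of a length trend. The fit was tested on simulated counts, where the share of false calls came out somewhat above the threshold in some comparisons.

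The members, lists and tests were chosen with earlier results of these data known. Named were all members, the other Schlafen genes, the 3 list genes with the smallest adjusted p per comparison, neighbours changed at least 1.5-fold, and the 3 genes most like each member with 5 CPM or more in a group. A gene that this rule picks is not reported here. Cd68, Itgb2 and Lyz2 were named, and the marker sum without Lyz2 computed, after their values were seen. Shared sequence windows were computed on GENCODE M21 transcripts, and promoters are RefSeq's for GRCm38.p6, in which all 7 members matched; no coordinate was moved between builds. Python 3.11.15 and matplotlib 3.10.9 made the tables and figures.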

Additional observations from a re-analysis of the deposited data

Results flagged for a closer look

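The response to uniSTING mRNA differed between the labels for 2 of the 5 tested Schlafen genes in a test of the difference itself. For Slfn2 the log2 fold change was higher under the DC2.4 label by 1.28, and for Slfn3 the difference, DC2.4 label minus 4T1 label, was -0.57 (edgeR adjusted p = 0.000733 and 0.000692). For Slfn2 the vesicle response also exceeded the mRNA response under the 4T1 label by 0.56 (edgeR adjusted p = 0.000383). The cells, the label and, for vesicles, the kind of treatment changed together in these contrasts and cannot be told apart. The groups of 2 are too small for a search for single libraries far from the rest.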

How the results depend on the processing

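The number of members called lower under the DC2.4 label (1), the 4T1 label (0) and with vesicles (0), and of those that differed between the Mock groups (5) and between vesicle and 4T1-label responses (1), was the same in all 22 alternatives. Members called higher under the DC2.4 label were 2 with no filter on low counts and 1 to 2 leaving out each library. Under the 4T1 label the single rise, of Slfn3, became 0 with DESeq2 and with no filter, and 0 to 1 leaving out a library. With vesicles the count was 2 with DESeq2 size factors in edgeR, with no filter, with 1 CPM in 4 libraries and with the replicate block, 3 with upper-quartile factors, and 1 to 2 leaving out a library. The added genes were Slfn8 and, with upper-quartile factors, Slfn3 (adjusted p = 0.0489). Members that differed between EXOmock and 4T1 Mock were 1 to 3 leaving out a library, 2 with upper-quartile factors (without Slfn2), 4 with only the libraries compared (Slfn4 added) and 3 in the other 8 settings. Those that differed between the mRNA responses were 2 to 3 leaving out a library, 3 with no filter (Slfn4 added, adjusted p = 0.0136) and 2 in the other 9.

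Among the alternative fits, fold changes turned sign or fell to 0 only when a library was left out. None of these was called with all 12 libraries fitted. Over those fits Slfn4 ran from 0, where no counts were left, to 5.75 under the DC2.4 label, and from -0.29 to 0.15 with vesicles. Slfn9 ran from -0.08 to 0.23 under the 4T1 label. The difference of mRNA responses ran from -0.21 to 0.18 for Slfn8, and that of vesicle and 4T1-label responses from -0.08 to 0.01 for Slfn3 and -0.04 to 0.77 for Slfn8. In single preparations Slfn4 also turned sign, at 0.12 in preparation 1 under the 4T1 label. Under the DC2.4 label its value in preparation 2 was -0.19. Both libraries had 0 counts there, so this value reflects only their totals and is no change in level. With vesicles Slfn4 stood at 0.09 in preparation 1, and Slfn9 under the 4T1 label at -0.01 in preparation 2. The cause of the other turns of sign was not tested.

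With the preparation number as a replicate block, Slfn8 with vesicles was called (edgeR adjusted p = 0.0351), and the block changed no other call of a member in the 3 comparisons. The differences between preparations correlated across genes in all 15 pairs of groups (r = 0.31 to 0.51), a hint from the data, since each comparison holds 2 pairs and the labels state no shared day or batch. Depth limits Slfn1, Slfn4 and Slfn5 in all libraries and Slfn2 in the mRNA-treated libraries labelled DC2.4.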
